A study of Mus musculus with 15 samples.

Results

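Endoderm and extraembryonic endoderm markers were followed in mouse embryonic stem cells whose Activin/Nodal signalling was raised or blocked. The 10 genes were listed by name, with earlier results of these data known: the endocytic receptor genes Cubn and Amn with their adaptor gene Dab2, the transcription factor genes Gata4, Gata6, Sox17, Sox7 and Hhex, and the genes of the secreted proteins Plat and Apoe. All 10 were among the 24451 genes of the count table, and all 10 were among the 14600 genes that passed the filter on low counts. The cells were of the ES-R1 line, grown without serum in a medium with N2 and B27 supplements, and RNA was sequenced after differentiation for 4 days. There were 5 groups of 3 libraries: control siRNA, Vprbp siRNA, control siRNA with Activin A at 25 ng/ml, Vprbp siRNA with the same dose of Activin A, and, as the last group, control siRNA plus an inhibitor called SB here. The number in the inhibitor's name differs between labels, and no dose of it is known here. No group had SB with Vprbp siRNA, and all groups share the line, the medium and a transfected siRNA. Vprbp is an older name of Dcaf1, whose protein brings substrates to a CRL4 ubiquitin ligase.

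Endoderm arises in the mouse embryo from several sources. The primitive endoderm of the blastocyst gives the visceral endoderm, an absorptive epithelium around the embryo, and the parietal endoderm, which lays down a thick basement membrane. Definitive endoderm comes later from the primitive streak and forms the gut. GATA6 and GATA4 start the primitive endoderm programme, SOX17 and SOX7 act with them, and HHEX marks the anterior endoderm. Cubilin and amnionless form a receptor that takes up nutrients at the surface of visceral endoderm, with DAB2 as its cytoplasmic adaptor. Nodal signals act through the receptor ALK4, which Activin also uses and SB inhibits, and they pattern both the anterior visceral endoderm and the definitive endoderm.

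Expression levels are CPM, the usual counts scaled to a common library size, with 11.1 to 15.5 M gene counts per library, at which 3 counts correspond to 0.196 to 0.271 CPM. "Rose", "fell" and like words are kept for an adjusted p under 0.05 in the quasi-likelihood test of edgeR, with Benjamini-Hochberg adjustment over the 14600 genes. Log2 fold changes are given with the standard error (SE) of that fit. Whether replicates came from separate cultures is not in the labels, and the p-values therefore cover the spread among these libraries alone, which may be technical. Vprbp RNA stood at 166.8 to 173 CPM with control siRNA and at 114 to 132 CPM with Vprbp siRNA. With Activin the ranges were 175 to 184 CPM and 131 to 149 CPM. Vprbp RNA was lower in every library of its siRNA than in every control siRNA library of the same medium, and the knockdown was partial, by 28.5% and 22.8%. Among the replicates, number 3 of control siRNA, number 3 of Vprbp siRNA and number 1 of Vprbp siRNA with Activin were treated as lying apart from their groups. This choice was made with earlier results of these data known, and results that rest on these libraries are given with and without them. In these bulk libraries, fewer cells of a type and less RNA per cell cannot be told apart.

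The defining markers of visceral endoderm, Afp and Ttr, were low in every library, and some other genes of that list stood far higher. The summed level of the 18 visceral endoderm genes was 241 to 267 CPM with control siRNA, and that of the 14 genes of parietal endoderm and basement membrane was 3300 to 3704 CPM. Lrp2 alone averaged 126 CPM there. The sums are not scaled for gene length, so they do not compare the lists with each other. Afp, the fetal serum protein that defines visceral endoderm, had at most 0.718 CPM in any library and had 0 counts in all 6 control siRNA libraries without Activin, those with SB included. A count of 0 allows up to the 3 counts given above, and this limit covers counting error only. Ttr, the thyroxine carrier, had at most 2.47 CPM. The summed level of 9 pluripotency genes was 4099 to 4473 CPM with control siRNA, 4342 to 4812 CPM with Activin and 2456 to 2816 CPM with SB. The part of the pluripotency genes in the results on endoderm genes was not tested.

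The 10 markers did not respond to the pathway in 1 direction. In control siRNA cells Activin raised Dab2 and Amn and lowered Plat, which makes 3 of the 10 genes, beside 4.83% of all genes tested (705 of 14600). SB raised Plat and Sox7 and lowered Amn, again 3 of 10, beside 22.6% of all genes (3294). These comparisons share the 3 control siRNA libraries. Between Activin and SB, which share no library, Dab2, Amn and Cubn were higher with Activin and Plat and Sox7 were higher with SB, 5 of 10 beside 38.0% of all genes (5547). The median log2 fold change of the 10 genes was -0.031 with Activin, -0.023 with SB and -0.11 between Activin and SB, and the medians over all genes tested were -0.0054, -0.0048 and -0.0020. The medians lay near 0, with rises and falls side by side.

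Another count gives the libraries themselves. With Activin the ranges of 7 of the 10 markers did not overlap those of control siRNA, 3 of them higher and 4 lower, beside 27.6% of all genes. With SB this held for 5 markers, 3 higher and 2 lower, beside 37.2% of all genes. Between Activin and SB it held for 8 markers, 4 in each direction, beside 54.9% of all genes. The number of genes called with Activin over the whole table depended on single libraries. It was 263 to 346 when any 1 of the Activin libraries or replicate 3 of control siRNA was left out and 455 without replicate 2 of control siRNA, whereas 2 or 3 markers were called in each of these fits.

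**Figure D1:**
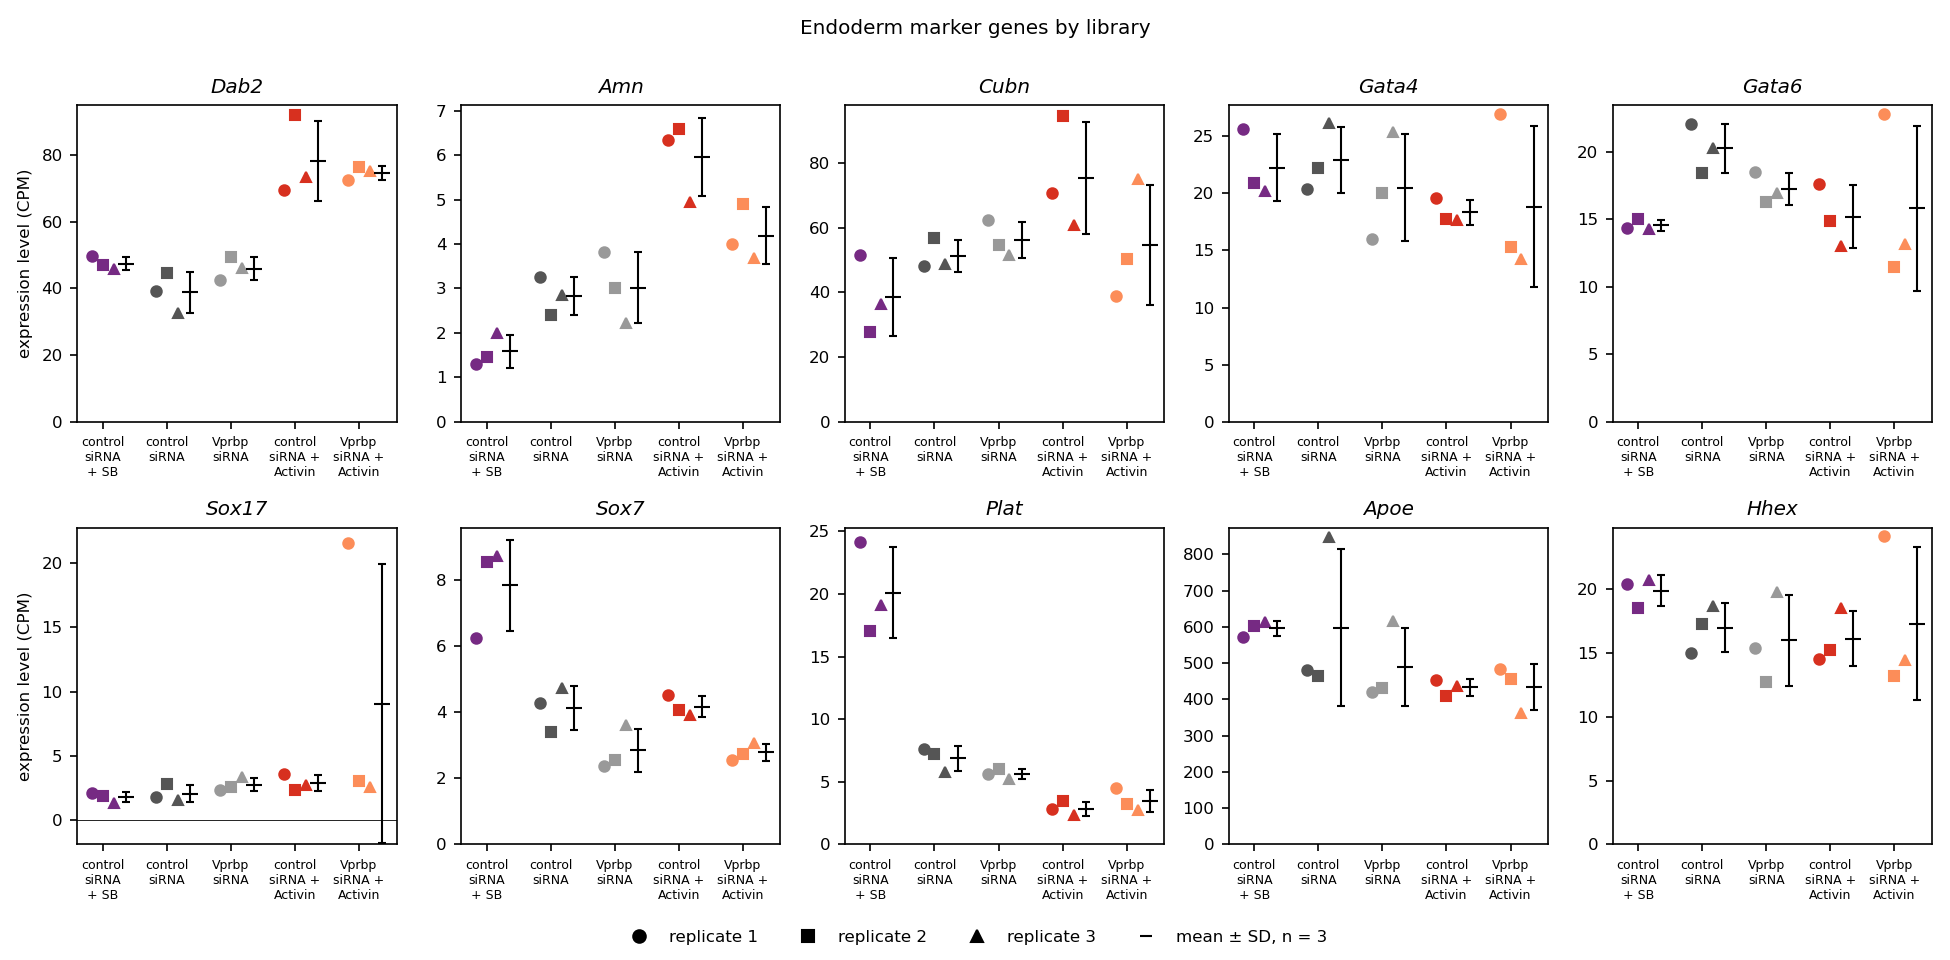
Expression level of each of the 10 markers in CPM on the vertical axis, by group on the horizontal axis, with 1 symbol per library and the mean ± SD (n = 3) to the right of it. Amn was highest in the control siRNA libraries with Activin, Dab2 was high in both Activin groups, whose ranges overlapped, and Plat and Sox7 were highest with SB, and Sox17 stood at 21.5 CPM in replicate 1 of Vprbp siRNA with Activin against at most 3.59 CPM elsewhere.

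Dab2 (chromosome 15, 6299788 to 6440712, GRCm38), the endocytic adaptor that links receptors of the cubilin and megalin type to clathrin, was the most regular of the receptor genes. Its levels were 39.3, 44.6 and 32.5 CPM in the 3 control siRNA libraries and 69.5, 92.0 and 73.4 CPM with Activin. With SB they were 49.6, 47.0 and 45.7 CPM. Every Activin library lay above every control siRNA and SB library, and the SB libraries also lay above the control siRNA libraries. Activin raised Dab2 2.02-fold, a log2 fold change of 1.01 ± 0.11 (SE, adjusted p = 2.0e-05). With SB the log2 difference from control siRNA was 0.29 ± 0.11 and did not pass the test (adjusted p = 0.0606). It passed when replicate 2 of control siRNA was left out (0.40, adjusted p = 0.0187) and with a block on replicate number (0.30, adjusted p = 0.0218). It did not pass without replicate 3 of control siRNA, which had the lowest Dab2 level of all 15 libraries. Nor did it pass without the 3 libraries that lay apart. With 1 library left out in turn this difference ranged from 0.18 to 0.40. Dab2 was 1.65-fold higher with Activin than with SB (0.72 ± 0.10, adjusted p = 2.1e-05). Among these 3 groups the mean of Dab2 was lowest in the untreated cells, with a difference from SB that did not pass in the main fit.

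Amn (chromosome 12, 111271095 to 111276426), the transmembrane subunit that carries cubilin to the cell surface, had low levels that followed the pathway in order. They were 3.25, 2.39 and 2.84 CPM with control siRNA, 6.35, 6.59 and 4.96 CPM with Activin and 1.31, 1.45 and 2.00 CPM with SB. The ranges of these 3 groups did not overlap, with SB lowest and Activin highest. Amn rose 2.11-fold with Activin (1.06 ± 0.23, adjusted p = 0.00985) and fell 1.78-fold with SB (-0.83 ± 0.26, adjusted p = 0.0261). Between Activin and SB the difference was 3.76-fold (1.90 ± 0.25, adjusted p = 4.7e-06). These values rest on 18 to 83 counts per library in the 3 groups. The call with Activin was lost without replicate 2 of control siRNA with Activin (0.98, adjusted p = 0.0535). The call with SB was lost without replicate 1 of control siRNA (-0.72, adjusted p = 0.109) and without replicate 1 or replicate 2 of control siRNA with SB (-0.71, adjusted p = 0.11, and -0.77, adjusted p = 0.0856).

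Cubn (chromosome 2, 13276338 to 13491813) encodes the large extracellular receptor subunit that binds intrinsic factor with vitamin B12 and other ligands. It stood at 48.1, 56.9 and 48.9 CPM with control siRNA, at 70.9, 94.6 and 61.0 CPM with Activin and at 51.6, 27.7 and 36.4 CPM with SB. The Activin libraries lay above the others, while the SB and control siRNA libraries overlapped. Cubn was higher with Activin than with SB (0.96 ± 0.27, adjusted p = 0.0153). Against control siRNA the log2 differences were 0.55 ± 0.26 with Activin (adjusted p = 0.266) and -0.41 ± 0.27 with SB (adjusted p = 0.329), and neither passed. The call between Activin and SB was lost without replicate 2 of control siRNA with Activin (0.77, adjusted p = 0.0558), without replicate 2 of control siRNA with SB (0.77, adjusted p = 0.0525) and in a fit of only these 2 groups (0.96, adjusted p = 0.0626). Dab2 overlaps the annotated genes Gm16311 and Gm18888 and Cubn overlaps Gm13270, all on the opposite strand, and since the strandedness of the counting is unknown here, their reads cannot be told apart.

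The sequences before the start sites of these 3 genes are shown because Cubn, Amn and Dab2, whose products work together, were the 3 markers that were higher with Activin than with SB. RefSeq promoters (GRCm38.p6, from 250 bases before to 50 bases after the start) matched 5 of the 10 markers, and Dab2 has 2 of them, of which the upstream one is printed. Both strands were searched for GATAA, the core that GATA factors bind, AATNNACA, a FOXH1 core, CAGACA, a Smad motif, and ACAAT, a SOX core, and capitals mark matches. The runs below are the 250 bases before the start, 5′ to 3′ in the direction of transcription, at chr15:6299539-6299788 (plus strand), chr12:111270846-111271095 (plus strand) and chr2:13491877-13492126 (minus strand).
Dab2: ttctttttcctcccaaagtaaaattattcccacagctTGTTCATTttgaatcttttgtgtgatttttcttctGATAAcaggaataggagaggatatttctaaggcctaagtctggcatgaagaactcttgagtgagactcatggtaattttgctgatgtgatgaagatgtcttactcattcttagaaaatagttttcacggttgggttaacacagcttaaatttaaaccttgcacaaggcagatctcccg
Amn: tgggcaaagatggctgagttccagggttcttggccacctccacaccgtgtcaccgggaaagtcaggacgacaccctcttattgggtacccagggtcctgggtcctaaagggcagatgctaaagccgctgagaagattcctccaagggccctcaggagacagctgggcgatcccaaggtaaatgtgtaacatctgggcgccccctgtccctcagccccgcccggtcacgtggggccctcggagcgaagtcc
Cubn: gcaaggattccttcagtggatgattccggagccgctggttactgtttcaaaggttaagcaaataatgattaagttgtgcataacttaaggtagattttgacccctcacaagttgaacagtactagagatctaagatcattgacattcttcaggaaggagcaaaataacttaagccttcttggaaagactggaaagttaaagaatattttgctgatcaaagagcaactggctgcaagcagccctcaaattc
In the run of Dab2 a GATAA began 178 bases before the start and an AATNNACA, on the opposite strand, 213 bases before it. In the 50 bases after that start, not printed, each of these motifs had 1 more match on the opposite strand, at positions 15 and 23. The other Dab2 promoter held AATNNACA 62 bases and CAGACA 34 bases before its start. The promoters of Amn and Cubn held none of the 4 motifs. Apoe and Hhex were searched too, and neither was called between Activin and SB in the main fit. Among the 3 promoters of Apoe, number 1 held AATNNACA 246 bases and ACAAT 144 bases before its start. Number 3 held AATNNACA 173 bases before its start, and number 2 held none of the motifs. The promoter of Hhex held none either. Over all 32851 RefSeq promoters of this length the share with a match was 25.4% for GATAA, 12.2% for AATNNACA, 21.0% for CAGACA and 31.0% for ACAAT. A match is a description of letters and not a bound site.

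The machinery around this receptor was read from a list. Of 13 genes of megalin and cubilin endocytosis, 0 rose and 0 fell with Activin in control siRNA cells by edgeR, with 4 at an unadjusted p under 0.05, beside 4.83% of all genes called. With SB 2 of the 13 rose and 0 fell, beside 22.6% of all genes: Clcn5, an endosomal chloride transporter (0.74 ± 0.14), and Myo6, an endocytic myosin (0.22 ± 0.07). Lrp2, which encodes megalin, the large partner receptor of cubilin, had log2 differences of 0.19 ± 0.19 with Activin and -0.13 ± 0.19 with SB, neither past the test. Between Activin and SB, 0 of the 13 rose and 2 fell, beside 38.0% of all genes: Clcn5 (-1.14 ± 0.14), and Ap2m1, a subunit of the clathrin adaptor AP-2 (-0.65 ± 0.12). The list's median was -0.024 in that comparison.

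Of the wider visceral endoderm, 14 of 18 listed genes were tested, and between Activin and SB 4 rose and 0 fell, with a median log2 fold change of 0.33. The share called lay below the 38.0% of all genes. Apob, the structural protein of large lipoproteins, was at 7.56 CPM with Activin and 1.93 CPM with SB (1.95 ± 0.33). The iron carrier gene Trf (0.64 ± 0.16) and the nuclear receptor gene Hnf4a (0.70 ± 0.27) were also higher with Activin. Ttr passed as well, from a mean of 0.241 CPM with SB to 1.59 CPM with Activin. Against control siRNA, Activin raised 2 of the 14 genes, Ttr and Apob (1.20 ± 0.31), beside 4.83% of all genes, and SB lowered 2, Trf (-0.80 ± 0.15) and Dpp4 (-0.67 ± 0.13), beside 22.6%. In Vprbp siRNA cells Activin raised 3 of the 14, among them the tight junction gene Cldn6 (0.94 ± 0.18), and lowered Dpp4 (-0.64 ± 0.13), a surface peptidase gene, beside 6.12% of all genes. Without replicate 1 of Vprbp siRNA with Activin again 3 passed as higher and 1 as lower, beside 4.90% of all genes. Cldn6 was then at 0.68 ± 0.12, and Bmp2, a ligand gene, at 1.32 ± 0.36 in place of 2.37 ± 0.59.

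Of the transcription factor genes Sox7 passed the test, with SB. Sox7 (chromosome 14, 63943673 to 63950732), a SOX factor of primitive endoderm and of early vessels, stood at 4.27, 3.40 and 4.72 CPM with control siRNA, at 4.51, 4.06 and 3.90 CPM with Activin and at 6.25, 8.53 and 8.73 CPM with SB. The SB libraries lay above all others, and the Activin libraries lay within the range of control siRNA. SB raised Sox7 1.90-fold (0.92 ± 0.19, adjusted p = 0.00158), and the level with Activin was lower than with SB (-0.91 ± 0.20, adjusted p = 0.000979). With Activin against control siRNA the log2 difference was 0.0084 ± 0.21.

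Gata6 (chromosome 18, 11052064 to 11085635), the GATA factor that opens the primitive endoderm programme, stood at 22.1, 18.5 and 20.3 CPM with control siRNA, at 17.7, 14.9 and 13.0 CPM with Activin and at 14.4, 15.0 and 14.3 CPM with SB. Both treated groups lay below the untreated one without overlap and overlapped each other. The log2 differences from control siRNA were -0.42 ± 0.18 with Activin (adjusted p = 0.201) and -0.48 ± 0.18 with SB (adjusted p = 0.0719), and neither passed. Gata6 passed with SB by DESeq2 (adjusted p = 0.0484), in the fit with a replicate block (adjusted p = 0.0232), in a fit of only the 2 groups (adjusted p = 0.00712) and with the 3 apart-lying libraries left out (adjusted p = 0.00505).

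Gata4 (chromosome 14, 63198922 to 63271692), which acts beside GATA6 in extraembryonic endoderm and later in gut and heart, ranged from 20.4 to 26.1 CPM with control siRNA, from 17.6 to 19.6 CPM with Activin and from 20.3 to 25.6 CPM with SB. The Activin libraries lay below those of both other groups. The log2 difference between Activin and control siRNA was -0.32 ± 0.21 and that between Activin and SB -0.28 ± 0.21, neither past the test. Hhex (chromosome 19, 37434810 to 37440731), a homeobox gene of anterior endoderm and liver bud, ranged from 15.0 to 18.7 CPM, from 14.5 to 18.6 CPM and from 18.5 to 20.8 CPM in the same order. The ranges of its groups overlapped in each of the 3 comparisons. Its log2 differences were -0.071 ± 0.20 with Activin and 0.23 ± 0.19 with SB.

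Sox17 (chromosome 1, 4490931 to 4497354), a SOX factor required for definitive endoderm, had low levels of 1.83, 2.83 and 1.57 CPM with control siRNA, 3.59, 2.35 and 2.78 CPM with Activin and 2.11, 1.88 and 1.36 CPM with SB. These values rest on 19 to 47 counts per library. The Activin libraries lay above the SB libraries and overlapped the untreated ones. The log2 differences were 0.49 ± 0.80 with Activin and 0.71 ± 0.82 between Activin and SB, and neither passed. The fit shares 1 estimate of the spread over all 15 libraries, and without the 3 libraries that lay apart 9 of the 10 markers passed between Activin and SB, with Sox17 higher and Gata4, Apoe and Hhex lower with Activin beside the 5 named above, and with 46.2% of all genes called. In a fit of only these 2 groups 8 of 10 passed beside 47.7% of all genes. Sox17 overlaps Gm37587 and Gata6 overlaps 1010001N08Rik on the opposite strand, with the same limit as above.

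Several relatives and partners of these factors changed. Of 11 tested GATA and SOX partners and paralogs, 5 were higher and 4 lower with Activin than with SB, beside 38.0% of all genes. Gata2, a factor of blood and trophoblast, was at 1.61 CPM with Activin and 15.4 CPM with SB (-3.25 ± 0.27), and Gata3, a trophoblast factor, was at 0.900 and 4.37 CPM (-2.28 ± 0.40). Sox9 was lower with Activin as well (-3.24 ± 0.55), while the neural and pluripotency gene Sox3 was higher (1.35 ± 0.21). Among 11 genes of primitive endoderm formation, 3 were higher and 4 lower, beside the same share. The ligand gene Fgf4 (1.22 ± 0.09) and the receptor gene Fgfr1 (1.49 ± 0.07) were higher, and the receptor gene Fgfr2 (-1.68 ± 0.13) and the repressor gene Tcf7l1 (-0.44 ± 0.08) were lower. The medians of the 2 lists were -0.043 and -0.064.

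Plat (chromosome 8, 22757727 to 22782844), the tissue-type plasminogen activator that parietal endoderm secretes, had the widest response of the 10 markers. It stood at 7.59, 7.24 and 5.76 CPM with control siRNA, at 2.83, 3.43 and 2.31 CPM with Activin and at 24.2, 17.1 and 19.1 CPM with SB. The 3 groups did not overlap, with Activin lowest and SB highest. Plat fell 2.40-fold with Activin (-1.28 ± 0.21, adjusted p = 0.0012) and rose 2.93-fold with SB (1.55 ± 0.17, adjusted p = 1.6e-06). Between Activin and SB it was 7.04-fold lower with Activin (-2.83 ± 0.19, adjusted p = 8.6e-10). Over all 5 groups the order of means was SB, control siRNA, Vprbp siRNA, Vprbp siRNA with Activin and control siRNA with Activin, in which control siRNA overlapped Vprbp siRNA and the Activin groups overlapped each other. No library left out in turn ended a call of Plat in these 3 comparisons.

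Of the other genes of plasminogen activation 9 were tested, and 4 were higher and 1 lower with Activin than with SB, with a median of 0.18, beside 38.0% of all genes called. The urokinase gene Plau, the other plasminogen activator, was lower with Activin, as Plat was (1.19 against 3.20 CPM, -1.44 ± 0.31). The inhibitor gene Serpini1 (1.45 ± 0.16) and the clearance receptor gene Lrp1 (0.96 ± 0.09) were higher. Among 14 genes of parietal endoderm and basement membrane 1 was higher and 9 were lower with Activin than with SB, with a median of -0.51, beside 38.0% of all genes called. The laminin gene Lama1 stood at 54.7 CPM with Activin and 149 CPM with SB (-1.45 ± 0.14), and the collagen IV gene Col4a2 at 64.2 and 166.3 CPM (-1.38 ± 0.17). Snai1, a transcription factor of parietal endoderm and of migrating cells (-1.79 ± 0.24), and Sparc, a matrix protein gene (-0.52 ± 0.08), were lower too. Of the defining markers of parietal endoderm, Lama1 and Sparc passed and Thbd did not (-0.68). Thbd had at most 1.16 CPM in any library. Against control siRNA, Activin lowered 2 of these 14 genes and raised 0, beside 4.83% of all genes. SB raised 5 and lowered 1, beside 22.6% of all genes.

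Apoe (chromosome 7, 19696109 to 19699188), the lipoprotein ligand of low-density lipoprotein receptors, was by far the most abundant marker. Its levels were 481, 465 and 849 CPM with control siRNA, 454, 408 and 436 CPM with Activin and 572, 603 and 612 CPM with SB. Replicate 3 of control siRNA had the highest Apoe level of all 15 libraries, as it did for 12.1% of all genes. The Activin libraries lay below both other groups, and the SB libraries lay inside the range of control siRNA. The log2 differences from control siRNA were -0.47 ± 0.23 with Activin (adjusted p = 0.274) and -0.0047 ± 0.22 with SB. Without replicate 3 of control siRNA the log2 difference of Apoe with SB was 0.33 (adjusted p = 0.15), and without the 3 libraries that lay apart it was also 0.33 and passed (adjusted p = 0.00075), among 5 markers called beside 29.5% of all genes. Of 16 tested genes of lipoprotein metabolism, 4 were higher and 4 lower with Activin than with SB, with a median of 0.22, beside 38.0% of all genes. The lipase gene Lpl was lower (-1.70 ± 0.10), and the cholesterol exporter gene Abcg1 was higher (1.47 ± 0.14).

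Apoe and Plat are also expressed by other cell types, so marker lists of those types were read beside them. Of 10 macrophage markers 6 had at most 3 counts in every library, and C1qb had 0 in all 15. Their summed level was 30.4 to 47.5 CPM with control siRNA, 22.9 to 24.5 CPM with Activin and 43.6 to 51.8 CPM with SB, most of it from Cd68 and Itgam. The sum of 11 endothelial markers was 122 to 155, 139 to 143 and 83.9 to 88.1 CPM in the same order, most of it Pecam1, which pluripotent cells express too. The endothelial genes Cdh5 and Emcn had at most 1.02 and 0.291 CPM, and Emcn had 0 counts in 12 libraries. Sums of 9 cardiac mesoderm markers were 10.0 to 11.0, 6.59 to 6.94 and 17.2 to 24.3 CPM, with 4 of the 9 under 1 CPM in every library. Sums of 10 neural markers were 179 to 206, 150 to 154 and 160 to 186 CPM. Of the 7 tested 1 rose and 3 fell with Activin, with a median of -0.61, beside 4.83% of all genes called. Sums of 10 fibroblast markers were 62.8 to 82.0, 58.2 to 62.6 and 46.4 to 54.2 CPM. The macrophage, cardiac, neural and fibroblast sums were lower with Activin than with control siRNA without overlap, as Plat was. The endothelial sums of these groups overlapped. With SB the cardiac sum lay above control siRNA, as Plat did, and the macrophage and neural sums overlapped. The endothelial and fibroblast sums with SB lay below control siRNA without overlap, opposite to Plat. The part of these cells in the results on Plat, Apoe and Sox7 was not tested.

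**Figure D2:**
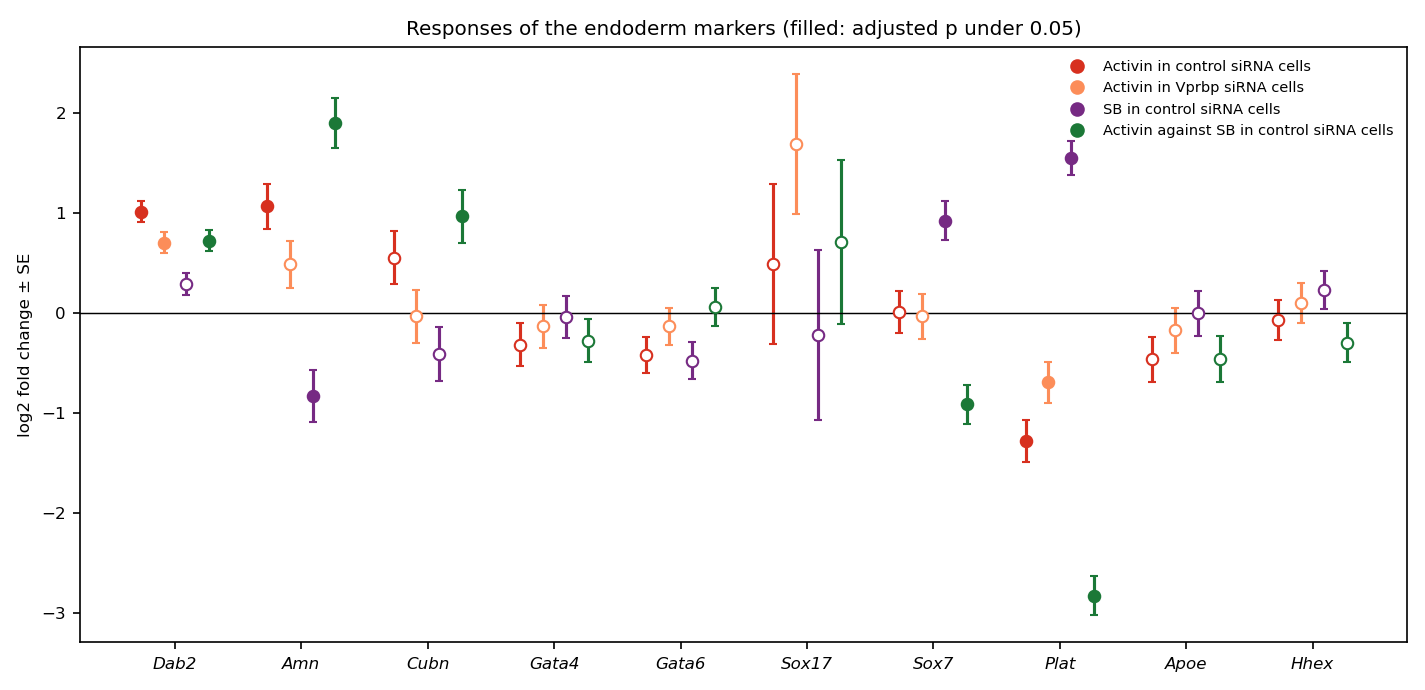
Log2 fold change ± SE of each marker (vertical axis) in 4 comparisons, with filled symbols where the adjusted p was under 0.05. Plat reached -2.83 between Activin and SB, Dab2 was filled and above 0 in both Activin comparisons, and Sox17 had the widest bars.

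Levels can be compared between genes only per length. Per kilobase of annotated exon (GENCODE M21), the mean over the 5 groups was 238 CPM per kb for Apoe, 7.76 for Dab2, 5.27 for Gata4, 3.70 for Cubn and 3.41 for Hhex. It was 2.55 for Gata6, 1.91 for Amn, 1.32 for Sox7, 1.25 for Plat and 0.778 for Sox17. The most abundant markers were not the most variable. The highest group mean was 7.04 times the lowest for Plat, 5.08 for Sox17, 3.76 for Amn and 2.82 for Sox7, and it was 1.24 to 2.02 times the lowest for the other 6 genes. Without replicate 1 of Vprbp siRNA with Activin the ratio of Sox17 was 1.63 and that of Sox7 2.76, while those of Plat and Amn were the same as before.

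Replicate 1 of Vprbp siRNA with Activin differed from its group in the endoderm factors. Sox17 stood at 21.5 CPM there and at 3.03 and 2.56 CPM in the other 2 libraries of the group, a ratio of 7.70 to their mean. Gata4 was at 27.0 CPM against 15.3 and 14.2, Gata6 at 22.8 against 11.5 and 13.2, and Hhex at 24.2 against 13.2 and 14.5 CPM. These 4 of 10 markers had their highest level of all 15 libraries there, beside 11.6% of all genes (1700 of 14600). Sox17 had the largest log2 difference from its group-mates (2.89) of the 12615 genes whose mean log2 CPM reached 1. Genes under that cut differed more, with ratios of 17.2 for Lhx1, 11.6 for Dkk1 and 11.5 for Cer1. The receptor genes did not share this: Cubn was at 38.9 CPM against 50.2 and 75.0, Amn at 3.99 against 4.91 and 3.67, and Dab2 at 72.4 against 76.3 and 75.1 CPM.

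The same library stood high for other genes of anterior and definitive endoderm. Of 14 definitive endoderm genes 11, and of 10 anterior visceral endoderm genes 8, were highest there, beside 11.6% of all genes. The lists share 4 genes, Cer1, Foxa2, Gsc and Lhx1. The Nodal and Wnt antagonist gene Cer1 stood at 51.2 CPM against 6.13 and 2.77 CPM in its group-mates, and the LIM homeobox gene Lhx1 at 48.3 against 3.25 and 2.36 CPM. Foxa2, the forkhead factor of definitive endoderm, was at 23.1 against 4.04 and 2.91 CPM, the chemokine receptor gene Cxcr4 at 15.4 against 3.46 and 3.40, and Dkk1, a Wnt antagonist gene, at 17.6 against 1.30 and 1.73 CPM. Of 14 visceral endoderm genes 7 were highest and 1 (Dpp4) lowest there. Of 14 parietal and basement membrane genes 3 (Lama1, Lamc1 and Hspg2) were lowest there and 0 highest. Over all genes 12.1% (1766 of 14600) were lowest there. Of the 9 pluripotency genes 1 was highest and 1 lowest, near the shares of all genes. This is 1 library. With it left out, the log2 differences between Activin and no Activin in Vprbp siRNA cells were 0.019 for Sox17, -0.47 for Gata4, -0.48 for Gata6 (adjusted p = 0.0432) and -0.21 for Hhex, and of these only Gata6 passed.

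**Figure D3:**
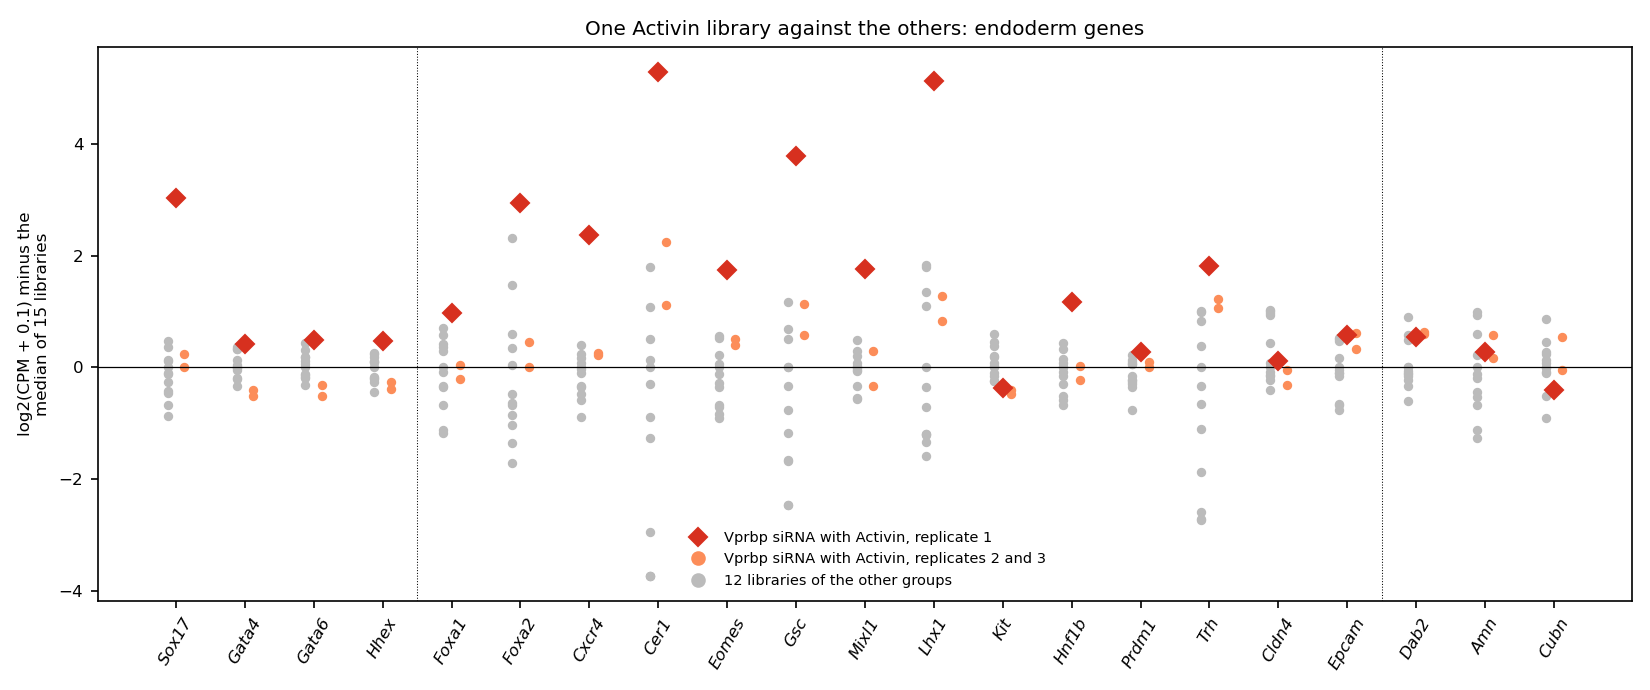
Level of endoderm genes in every library, as log2(CPM + 0.1) minus the median of the 15 libraries (vertical axis), with replicate 1 of Vprbp siRNA with Activin as diamonds, its 2 group-mates in orange and the other 12 libraries in grey. The dotted lines part the 4 marker factors, the definitive endoderm list and the 3 receptor genes, and the diamonds lie above all other libraries for Sox17, Cer1 and Lhx1 and within them for Dab2, Amn and Cubn.

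The same lists were read between the labelled groups. Of 14 definitive endoderm genes 5 were higher and 2 lower with Activin than with SB, with a median of 0.72. Of 10 anterior visceral endoderm genes 3 were higher and 1 lower, with a median of 1.52. The share called in the anterior list was near the 38.0% of all genes, and that in the definitive list, at 7 of 14, lay above it. The epithelial adhesion gene Epcam stood at 208 and 90.5 CPM (1.20 ± 0.08), the hormone gene Trh at 530 and 43.0 CPM (3.62 ± 0.46), Prdm1 at 37.4 and 26.8 CPM (0.48 ± 0.12), and the receptor gene Kit was lower (-0.69 ± 0.08). Of the defining markers of definitive endoderm, Eomes was higher with Activin (1.28), while Cxcr4 (0.68) and Foxa2 (-1.86) did not pass. Foxa2 stood at 3.75, 2.08 and 1.78 CPM with Activin and at 14.8, 4.48 and 8.30 CPM with SB. Its SB libraries lay above its Activin libraries. In the anterior list the Nodal antagonist gene Lefty1 stood at 255 and 1.56 CPM (7.34 ± 0.61), the homeobox gene Otx2 was higher as well (1.35 ± 0.33), and Hesx1, an anterior homeobox gene, was at 1.60 and 22.1 CPM (-3.81 ± 0.23). Cer1 had 0 counts in all 3 SB libraries, so that its mean of 2.55 CPM with Activin was at least 11.8-fold higher at 3 counts per library, a difference that did not pass the test. Both medians kept these values with Cer1 set at that bound.

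**Figure D4:**
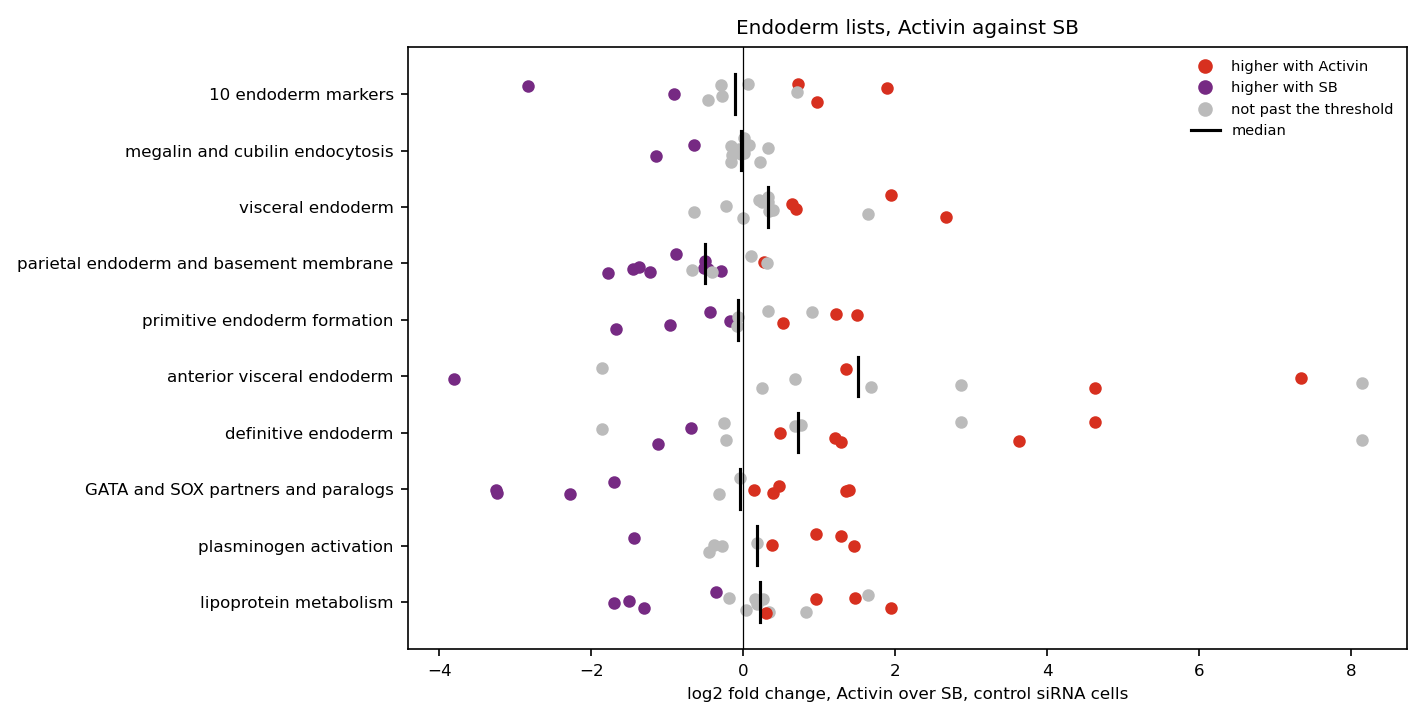
Log2 fold change between Activin and SB in control siRNA cells (horizontal axis) for each gene of 10 lists (rows), with a vertical bar at each list's median. The median was -0.51 for parietal endoderm and basement membrane, 0.33 for visceral endoderm and -0.11 for the 10 markers; Cer1, with 0 counts in the SB libraries, is drawn at its fitted value, which depends on the prior count.

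None of the 10 markers passed the test with Vprbp siRNA. Without Activin 0 were called by edgeR and 0 by DESeq2, with 2 (Dab2 and Sox7) at an unadjusted p under 0.05, beside 0.0411% of all genes (6 of 14600). With Activin 0 were called by either tool, with 3 (Amn, Sox17 and Sox7) at an unadjusted p under 0.05, again beside 0.0411% of all genes. Sox7 was at 2.37, 2.55 and 3.60 CPM with Vprbp siRNA, a log2 difference of -0.53 ± 0.21 (adjusted p = 0.542). Under Activin the Vprbp siRNA libraries had 2.55, 2.74 and 3.05 CPM, a difference of -0.57 ± 0.22 (adjusted p = 0.346). Sox7 was lower in every Vprbp siRNA library than in every control siRNA library when Activin was present, and the ranges overlapped without it. Amn with Activin was at 3.99, 4.91 and 3.67 CPM with Vprbp siRNA, below the 3 control siRNA libraries, at -0.50 ± 0.22 (adjusted p = 0.422). Sox17 differed by 1.61 ± 0.70 with Activin (adjusted p = 0.458) and by -0.056 without replicate 1 of Vprbp siRNA with Activin. None of the genes of the 9 endoderm lists was called in either comparison by edgeR. The count of 6 genes over the whole table depended on single libraries. Without Activin it was 34 without replicate 3 of Vprbp siRNA, and 2 or 3 without replicate 1 or 2 of Vprbp siRNA or replicate 2 or 3 of control siRNA. With Activin it was 20 without replicate 3 of Vprbp siRNA with Activin, 3 without replicate 2 of that group, and 0 without any 1 of the control siRNA libraries with Activin. No marker was called in any of these fits.

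The Activin response of the markers was read again in Vprbp siRNA cells, where 2 of 10 were called beside 6.12% of all genes (894). The count over all genes was 354 to 491 without replicate 1 or 3 of Vprbp siRNA or replicate 2 of Vprbp siRNA with Activin. Dab2 rose from 42.4, 49.3 and 46.0 CPM to 72.4, 76.3 and 75.1 CPM, without overlap (0.70 ± 0.11, adjusted p = 0.00045). Plat fell from 5.65, 6.01 and 5.23 CPM to 4.47, 3.25 and 2.77 CPM, also without overlap (-0.69 ± 0.20, adjusted p = 0.0486). This call of Plat lay at the threshold and was lost with RLE size factors (adjusted p = 0.0502), with library totals, with a filter of 1 CPM, in a fit of only these groups (adjusted p = 0.14), and without any 1 of the Vprbp siRNA libraries or replicate 2 or 3 of Vprbp siRNA with Activin, at -0.75 to -0.55. Amn did not pass, with 3.82, 3.00 and 2.22 CPM against 3.99, 4.91 and 3.67 CPM (0.48 ± 0.23, adjusted p = 0.255), and Cubn differed by -0.036 ± 0.27. The difference of the 2 Activin responses was tested as an interaction. By edgeR 0 of 10 markers passed and 0 had an unadjusted p under 0.05, DESeq2 called 0, and over all genes 0% passed with 517 at an unadjusted p under 0.05. The differences were -0.31 ± 0.15 for Dab2, -0.58 ± 0.33 for Amn, -0.59 ± 0.37 for Cubn and 0.59 ± 0.29 for Plat, so a response that passed in control siRNA cells alone is not shown to differ between the siRNAs.

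Across the 15 libraries the markers varied in pairs, given here as Pearson's r of log2 CPM over libraries that share their groups. Amn and Plat ran against each other at r = -0.89, and Gata4 ran with Apoe and with Hhex at 0.71 in both cases. Sox7 and Plat stood at 0.69 and Amn and Cubn at 0.67. After the group means were removed, Amn and Plat stood at 0.17, Amn and Cubn at 0.012 and Sox7 and Plat at -0.54, while Gata4 stood at 0.60 with Apoe and at 0.75 with Hhex. Sox17 and Gata6 stood at 0.80 within groups and at -0.072 without replicate 1 of Vprbp siRNA with Activin, and Gata4 and Gata6 at 0.61 and -0.15. Without that library Gata4 stood at 0.44 with Hhex and at 0.67 with Apoe within groups. The genes with the pattern most like Dab2 were Parp14 (0.92), Ttr (0.92) and Efna1 (0.90). Those most like Plat were H2afy2, Cpe and Crtc3 (each 0.97), those most like Amn Rad50, Idh3a and Psmd7, and those most like Cubn Sp4, Crnde and Prkd3. Flt1, Sfrp5 and Dgkk were most like Sox17, Pramef12 and Stom most like Sox7, and Ftl1, Nfe2l1 and Slc38a7 most like Apoe. For Hhex the first was Nrp1 (0.89), for Gata6 Col3a1 (0.89) and for Gata4 2810428I15Rik (0.84).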

How the data were processed

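The authors deposited 1 table of counts per gene symbol for 15 libraries, not normalized, and the submitters' processing notes name HTSeq 0.6.1p1 and the mouse build mm10. Which aligner, annotation and strandedness were used was not given in the sources used here. Groups and replicate numbers came from the sample titles. The table's 24456 rows include 5 tallies, which stayed out of library sizes and tests. Between 10.3% and 16.0% of the tallied total per library fell outside genes and 27.7% to 29.5% were not aligned.

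Genes were kept by filterByExpr (minimum count 10), scaled by TMM (0.985 to 1.02) and tested with edgeR 4.0.16 (robust quasi-likelihood, R 4.3.3, limma 3.58.1) on all 15 libraries, with 1 mean per group and Benjamini-Hochberg adjustment within each of 7 comparisons, at a threshold of 0.05. The biological coefficient of variation was 8.76%. The procedure was tested on simulated counts with 1 spread for all genes and no library that lay apart, so that test does not cover such libraries. Sampling noise was exceeded by every replicate pair (chi-square per degree of freedom 2.75 to 16.1). In Vprbp siRNA with Activin it was 7.37 for replicates 1 and 2, 7.44 for 2 and 3, and 15.6 for 1 and 3. This measure does not set replicate 1 of that group apart from replicate 3. The alternatives were RLE factors or library totals, no filter or 1 CPM in 3 libraries, a block on replicate number, DESeq2 1.42.0, only the compared groups in the fit, leaving out the 3 libraries that lay apart, and leaving out each library in turn.

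The 10 markers, the gene lists and the 3 libraries were chosen with earlier results of these data known. Named beside the markers were the up to 4 genes of a described list with the smallest p-values, and the 3 genes whose log2 CPM (prior count 2) correlated best with each marker; a few genes that this rule names are not reported here. Positions and exon lengths come from GENCODE M21 (GRCm38) and promoters from RefSeq (GRCm38.p6). Same-numbered libraries of control siRNA and Vprbp siRNA deviated together from their group means (r = 0.12, 0.20 and 0.37), a hint of pairing from the data alone. The 3 values are not independent, because the deviations within a group add up to 0. Number 3 of both groups also lay apart, so these values cannot settle whether the libraries were paired. The main fit used no pairing. The bar was r over 0.1 at all 3 numbers, which no other pair of groups reached.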

Additional observations from a re-analysis of the deposited data

How the results depend on the processing

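The 10 markers gave 1031 alternative log2 values: 938 kept direction and side of the threshold, 61 changed sign, 16 gained and 16 lost a call. No result that changed sign was a call in the report, and the cause was not tested. With the replicate block, all genes called were 1058 with Activin (705 without it), 18 and 51 with Vprbp siRNA without and with Activin (6 each), and 5 markers passed with SB in place of 3, Dab2 and Gata6 gained. The block changed no other marker call. Without the 3 libraries that lay apart, 5 markers passed with SB and 9 between Activin and SB, and 75 genes, 205 genes and 1 gene were called with Vprbp siRNA, with it under Activin and for the interaction. In fits of only the compared groups 8 markers passed between Activin and SB, 1 with Activin in Vprbp siRNA cells (1 also with RLE factors, library totals and the 1 CPM filter), and 1, 71 and 388 genes were called for Vprbp siRNA without and with Activin and for Activin in Vprbp siRNA cells. DESeq2 called 30 and 78 and no filter 10 and 15 with Vprbp siRNA without and with Activin.

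Leaving out 1 library gave 263 to 741 genes with Activin, 2 to 34 and 0 to 20 with Vprbp siRNA without and with Activin, and 354 to 1151 for Activin in Vprbp siRNA cells, and 2 to 4, 4 to 5 and 1 to 3 markers for SB, Activin against SB and Activin in Vprbp siRNA cells. Log2 ranges that crossed 0 were, with Activin, Sox7 -0.11 to 0.11 and Hhex -0.19 to 0.0033. With SB they were Gata4 -0.16 to 0.062, Sox17 -0.38 to 0.062 and Apoe -0.16 to 0.33, and between Activin and SB Gata6 -0.070 to 0.16. With Vprbp siRNA they were Amn -0.12 to 0.27, Apoe -0.49 to 0.050 and Hhex -0.27 to 0.054. With it under Activin they were Dab2 -0.14 to 0.068, Gata4 -0.31 to 0.20, Gata6 -0.29 to 0.24, Sox17 -0.056 to 2.06, Apoe -0.076 to 0.12 and Hhex -0.22 to 0.25. For Activin in Vprbp siRNA cells they were Cubn -0.33 to 0.16, Gata4 -0.47 to 0.053, Gata6 -0.48 to 0.054, Sox7 -0.15 to 0.18, Apoe -0.27 to 0.024 and Hhex -0.21 to 0.29. For the interaction they were Gata4 -0.15 to 0.37, Gata6 -0.055 to 0.48, Sox17 -0.47 to 1.65, Sox7 -0.16 to 0.17, Apoe -0.048 to 0.49 and Hhex -0.13 to 0.36.

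Without the 3 libraries that lay apart the sign also changed for Hhex with Activin (0.0028), Gata4 and Apoe with SB (0.062 and 0.33), Gata4, Gata6, Sox17, Apoe and Hhex with Vprbp siRNA under Activin (-0.31, -0.29, -0.056, -0.076 and -0.22), Cubn, Sox7 and Hhex for Activin in Vprbp siRNA cells (0.10, 0.24 and -0.021), and Gata4, Gata6, Sox17, Sox7 and Hhex for the interaction (-0.068, -0.070, -0.14, 0.13 and -0.024). Of these, Apoe with SB passed the test there (adjusted p = 0.00075). It was 0.019 with library totals and 0.025 with the block. Depth was low for Amn, with 18 counts in 1 SB library.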

Other observations

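Replicate 2 of control siRNA with Activin held the highest level of Dab2, Amn and Cubn among all 15 libraries, at 92.0, 6.59 and 94.6 CPM, and 5.25% of all genes tested were highest there. Replicate 3 of control siRNA held the highest level of Apoe and the lowest of Dab2. These libraries were singled out after their values were seen.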
